A study of Mus musculus with 4 samples.

Results

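This account describes 10 of the 27998 genes in the count tables: the interleukin-1 (IL-1) family ligands Il1a, Il1b and Il18, the antagonist Il1rn, the decoy receptor Il1r2, the receptor chains Il1rap and Il1rl1, and the inflammasome genes Nlrp3, Pycard and Casp1. They were chosen by name, with earlier results of these data known, and all 10 were found in the 4 libraries. Each was followed across leukocyte classes, across the 2 genotypes and across the 2 times after muscle injury.

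IL-1 signalling starts when IL-1α or IL-1β binds its receptor and the accessory chain encoded by Il1rap joins the complex. IL-1β and IL-18 are made as inactive precursors. They are cut by caspase-1 (Casp1), which is activated on an inflammasome built from the sensor Nlrp3 and the adaptor ASC (Pycard). The receptor antagonist (Il1rn) and the decoy receptor (Il1r2) take up receptor or ligand without passing a signal on, and Il1rl1 encodes ST2, the receptor chain for IL-33. In injured muscle these genes are best known from the neutrophils, monocytes and macrophages that enter the tissue. A transcript count says nothing of precursor cleavage or release.

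Leukocytes were enriched with CD45 magnetic beads from the tibialis anterior of male mice, 8 to 12 weeks old, after injection of cardiotoxin, a venom toxin that kills muscle fibres. Cells were taken 2 days (dpi2) or 4 days (dpi4) after the injury and their 3′ transcript ends were counted cell by cell in droplets. Control mice were Bach1 fl/fl littermates, and KO mice were Bach1 fl/fl Lyz2 Cre, in which the floxed exon 4, encoding part of the DNA-binding domain of the transcriptional repressor BACH1, is removed by a Cre driven by the Lyz2 promoter. All groups carried the floxed allele and all were injured. This Cre is active in monocytes, macrophages and neutrophils, so dendritic, T and NK cells are not its main targets. Each of the 4 groups was 1 library, so the differences have no replicate check and no test was run. All intervals are 95% intervals for counting error only.

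The filtered libraries held 3433 to 5721 cells with medians of 10716 to 15146 unique molecular identifiers (UMIs, each counting 1 captured RNA molecule). From 2 to 14 cell barcodes were shared between pairs of libraries. Bach1 had 187 to 217 CPM (UMIs scaled to 1000000 per library or class) in all 4 libraries, but 3′ counts do not cover the deleted exon and so do not check the deletion. Lyz2, whose locus carries the Cre, had 9388 and 15845 CPM in the control libraries and 17.5 and 21.6 CPM in those labelled KO. The KO libraries thus differed from controls in Lyz2 as well as in the floxed Bach1. The part of each in the ratios below was not tested. Clusters were called macrophage-like, monocyte-like and so on from fixed markers, and these classes are named without the ending here. There were 2010 control and 1092 KO macrophages at dpi2 and 3088 and 2677 at dpi4. Monocytes numbered 2550 and 990 at dpi2 but only 51 and 67 at dpi4, and neutrophils 634 and 831 at dpi2 but 129 and 35 at dpi4. A cluster led by Mirt1, Il1f9 and Irg1 (cluster 11) scored highest for neutrophil markers but stayed unnamed, since no such marker was among its 10 leading genes and its depth was far below its libraries' medians. The neutrophils were as shallow (2308 and 3420 UMIs at dpi2, against 2797 and 3556) but had 6 such markers. It held 86 control and 478 KO cells at dpi2, and 4 and 12 at dpi4.

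The promoters of the 5 members that were at least 2-fold higher in KO than in control macrophages at dpi2 are shown so that they can be read beside the values: 2 ligands, the antagonist, the decoy receptor and the sensor. Each is 300 bases of GRCm38.p6 from RefSeq, from 250 bases before to 50 bases after a transcription start, given 5′ to 3′ on the strand of the gene. RefSeq gave 14 such windows for the 10 genes. Capitals mark matches, on either strand, to the 4 motifs searched: TGAGTCA (the AP-1 site, also the core of longer BACH1 and NRF2 sites), TGACNNNGC (the antioxidant response element), the NF-kB site and TATAAA (the TATA box).
Il1a, chr2:129309923-129310222, minus strand: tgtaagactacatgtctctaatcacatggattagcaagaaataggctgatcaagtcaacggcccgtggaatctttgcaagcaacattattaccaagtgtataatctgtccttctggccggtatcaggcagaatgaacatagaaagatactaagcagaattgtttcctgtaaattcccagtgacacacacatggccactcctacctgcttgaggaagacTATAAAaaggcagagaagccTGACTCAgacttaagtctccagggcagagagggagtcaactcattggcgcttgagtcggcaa
Il1b, chr2:129371090-129371389, minus strand: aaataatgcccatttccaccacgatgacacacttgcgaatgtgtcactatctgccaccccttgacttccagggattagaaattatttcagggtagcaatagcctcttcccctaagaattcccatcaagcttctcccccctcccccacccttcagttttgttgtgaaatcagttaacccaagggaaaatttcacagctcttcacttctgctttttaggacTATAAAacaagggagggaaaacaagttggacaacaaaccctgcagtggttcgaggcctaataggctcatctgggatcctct
Il1rn, first start, chr2:24336610-24336909, plus strand: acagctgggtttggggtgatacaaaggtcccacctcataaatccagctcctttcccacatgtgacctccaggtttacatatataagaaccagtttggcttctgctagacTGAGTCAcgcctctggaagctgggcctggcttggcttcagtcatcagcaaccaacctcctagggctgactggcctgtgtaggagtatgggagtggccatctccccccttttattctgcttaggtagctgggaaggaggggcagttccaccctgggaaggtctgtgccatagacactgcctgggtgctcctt
Il1r2, chr1:40085843-40086142, plus strand: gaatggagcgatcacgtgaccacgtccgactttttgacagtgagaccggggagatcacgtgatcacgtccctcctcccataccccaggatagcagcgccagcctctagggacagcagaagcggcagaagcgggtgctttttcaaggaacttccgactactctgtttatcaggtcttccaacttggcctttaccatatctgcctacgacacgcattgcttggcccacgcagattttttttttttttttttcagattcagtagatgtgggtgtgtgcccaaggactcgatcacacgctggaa
Nlrp3, first start, chr11:59541319-59541618, plus strand: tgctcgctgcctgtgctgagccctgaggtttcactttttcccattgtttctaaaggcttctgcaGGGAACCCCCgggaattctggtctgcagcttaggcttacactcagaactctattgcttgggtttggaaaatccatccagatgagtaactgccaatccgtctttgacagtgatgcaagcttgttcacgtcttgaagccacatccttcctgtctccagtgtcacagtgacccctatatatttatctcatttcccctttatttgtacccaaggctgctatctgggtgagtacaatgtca

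In the Il1rn window TGAGTCA lay at -141 to -135, counted with the first transcribed base as 0. The Il1a window held its reverse complement at -12 to -6 and a TATA box at -32 to -27, and the Il1b window a TATA box at -31 to -26. The Nlrp3 window held an NF-kB match at -186 to -177 that reads on both strands, and its second start held TGACNNNGC. Elsewhere, the second Il1rl1 start held TGACNNNGC, and Il18 and the third Il1rn start held TATAAA on the opposite strand. Il1r2, Il1rap, Casp1 and Pycard held none of the 4. Of all 32851 promoters in the table, 5.2% held TGAGTCA, 12.4% TGACNNNGC, 8.46% the NF-kB site and 13.6% TATAAA. A match describes these letters only and is no evidence of binding.

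The ligands differed in the cells that carried them. Il1b (chromosome 2, 129364570 to 129371139, GRCm38) was by far highest in neutrophils, at 16739, 19185, 14896 and 13221 CPM in control dpi2, KO dpi2, control dpi4 and KO dpi4, the order used throughout. The last of these rests on 35 cells. Dendritic cells held 1799, 3360, 2939 and 2426 CPM and monocytes 1686, 4647, 2816 and 2770 CPM. In macrophages the level was 122, 505, 427 and 254 CPM. So the order in every library ran from neutrophils through monocytes and dendritic cells to macrophages. Among the dendritic cells, type 2 conventional cells (cDC2) held more (1952, 3843, 3729 and 3156 CPM) than type 1 cells (cDC1, at 1421, 2009, 1525 and 1321 CPM). Dendritic cells and monocytes changed places between libraries, and at dpi4 in controls their intervals overlapped (2883 to 2997 and 2671 to 2966). Cluster 11, with 1957 (1787 to 2138) and 2276 (2207 to 2347) CPM at dpi2, was close to the dendritic cells in the control and below them and the monocytes in the KO library.

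T and NK cells, which serve as a background for RNA from other cells, held 244, 70.5, 30.6 and 30 CPM of Il1b. The first value came mostly from the 29 T cells of that library (687 CPM), while its NK cells held 46.4 CPM. Macrophage Il1b in the control at dpi2 was therefore above the NK cells but below the T cells of the same library.

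Il1a (chromosome 2, 129299610 to 129309972), an alarmin that is active without cleavage, was also highest in neutrophils (161, 171, 203 and 90.8 CPM) and in cluster 11 at dpi2 (168 and 130 CPM). Monocytes held 11, 50.5, 3.99 and 12.5 CPM and macrophages 2.86, 23.6, 16.5 and 20.5 CPM. Control macrophages at dpi2 stood apart from the other 3 libraries, which were between 16.5 and 23.6 CPM. T and NK cells gave no UMI in 3 libraries and 1 UMI in the control at dpi4.

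Il18 (chromosome 9, 50554827 to 50581840), the second ligand cut by caspase-1, showed another order. Monocytes had the highest values, with 104, 59.8, 51.9 and 100 CPM. Macrophages held 21.6, 19.7, 37.1 and 45.1 CPM, dendritic cells 27.9, 18.6, 27.9 and 24.1 CPM and neutrophils at most 20.1 CPM. In the control at dpi4 the intervals of monocytes (33.9 to 76.1, from 26 UMIs) and macrophages (35.6 to 38.8) overlapped. At dpi2 those of KO macrophages (18.2 to 21.4) and KO dendritic cells (14.5 to 23.4) overlapped. Neutrophils, highest for the other 2 ligands, were thus the lowest named myeloid class for Il18, with an interval (13.6 to 28.5) that overlapped that of macrophages (20.2 to 23.1) in the control at dpi2.

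The antagonist Il1rn (chromosome 2, 24336853 to 24351494) was highest in cluster 11 at dpi2, at 3159 and 4013 CPM, and next in neutrophils, at 1160, 1514, 1630 and 1321 CPM. Monocytes held 317, 616, 407 and 371 CPM and macrophages 143, 294, 131 and 101 CPM. Dendritic cells, close to monocytes for Il1b, held only 25.6, 72.9, 50.8 and 29.8 CPM of Il1rn. T and NK cells held 3.6 to 32.1 CPM.

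The decoy receptor Il1r2 (chromosome 1, 40074079 to 40125231) was highest in neutrophils. Neutrophils held 1376, 1713, 907 and 605 CPM and dendritic cells 62.1, 132, 135 and 96.5 CPM. Cluster 11 at dpi2 held 2.36% and 6.98% of the Il1r2 UMIs with 0.35% and 3.37% of all UMIs. For dendritic cells these were 7.79% and 7.46% with 4.89% and 7.08%. Within the dendritic cells Il1r2 sat in cDC2 at 75, 151, 190 and 145 CPM, while cDC1 held 13 to 55.4 CPM. Macrophages held 2.58, 7.72, 1.94 and 1.25 CPM, against 6.42, 5.42, 1.8 and 5 CPM in the T and NK cells. The latter rest on 3, 1, 1 and 4 UMIs, too few to say whether macrophages exceeded this background.

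Il1rap (chromosome 16, 26581704 to 26730117), the shared signalling chain, was highest in neutrophils (101, 166, 83.9 and 60.5 CPM) and next in cluster 11 at dpi2 (63.9 and 85.6 CPM). Monocytes held 28.4, 33.6, 22 and 12.5 CPM, macrophages 13.5, 15.5, 9.38 and 8.32 CPM and dendritic cells 11.7, 19.1, 10.6 and 7.04 CPM. Macrophages and dendritic cells had overlapping intervals in each library. At dpi4 the intervals of monocytes and macrophages overlapped in the KO library only. Il1rl1 (chromosome 1, 40429570 to 40465415), which encodes ST2, had only 82 to 190 UMIs per library. It was highest in T cells, at 34.7, 141, 57.3 and 86.1 CPM, from 14 to 52 cells. NK cells of the same libraries gave 0 UMIs in 3 libraries and 1 UMI in that labelled KO at dpi2. The T cell class also held markers of regulatory T cells, at summed levels of 749, 1195, 614 and 361 CPM. Those of type 2 innate lymphoid cells summed to 27.7, 180, 160 and 217 CPM, the second from Gata3 alone. Which of these cells held Il1rl1 was not tested.

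Of the inflammasome genes, the sensor Nlrp3 (chromosome 11, 59541568 to 59566956) followed Il1b. Neutrophils held 1091, 969, 836 and 585 CPM, monocytes 167, 387, 268 and 202 CPM, dendritic cells 93.1, 140, 161 and 115 CPM and macrophages 49.3, 128, 78.2 and 65.6 CPM. The adaptor Pycard (chromosome 7, 127989708 to 127993867) ran the other way. It was lowest in neutrophils (52.4, 57.6, 51.4 and 40.3 CPM) and higher in macrophages (329, 239, 200 and 162 CPM), monocytes (321, 269, 230 and 174 CPM) and dendritic cells (393, 356, 160 and 156 CPM). T and NK cells held 179 to 249 CPM of Pycard, so it did not separate lymphoid from myeloid cells. Casp1 (chromosome 9, 5298517 to 5307265), the protease, was also low in neutrophils, at 10.8 to 20.2 CPM, against 38.3 to 48.7 CPM in macrophages, 46.1 to 74 CPM in dendritic cells and 86.4, 63.1, 37.9 and 100 CPM in monocytes. Cluster 11 at dpi2 held 347 and 503 CPM of Nlrp3 and 71.9 and 39.5 CPM of Pycard. Neutrophils therefore combined the highest levels of Il1b and Nlrp3 with the lowest of Pycard and Casp1 among the named myeloid classes.

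**Figure D1:**
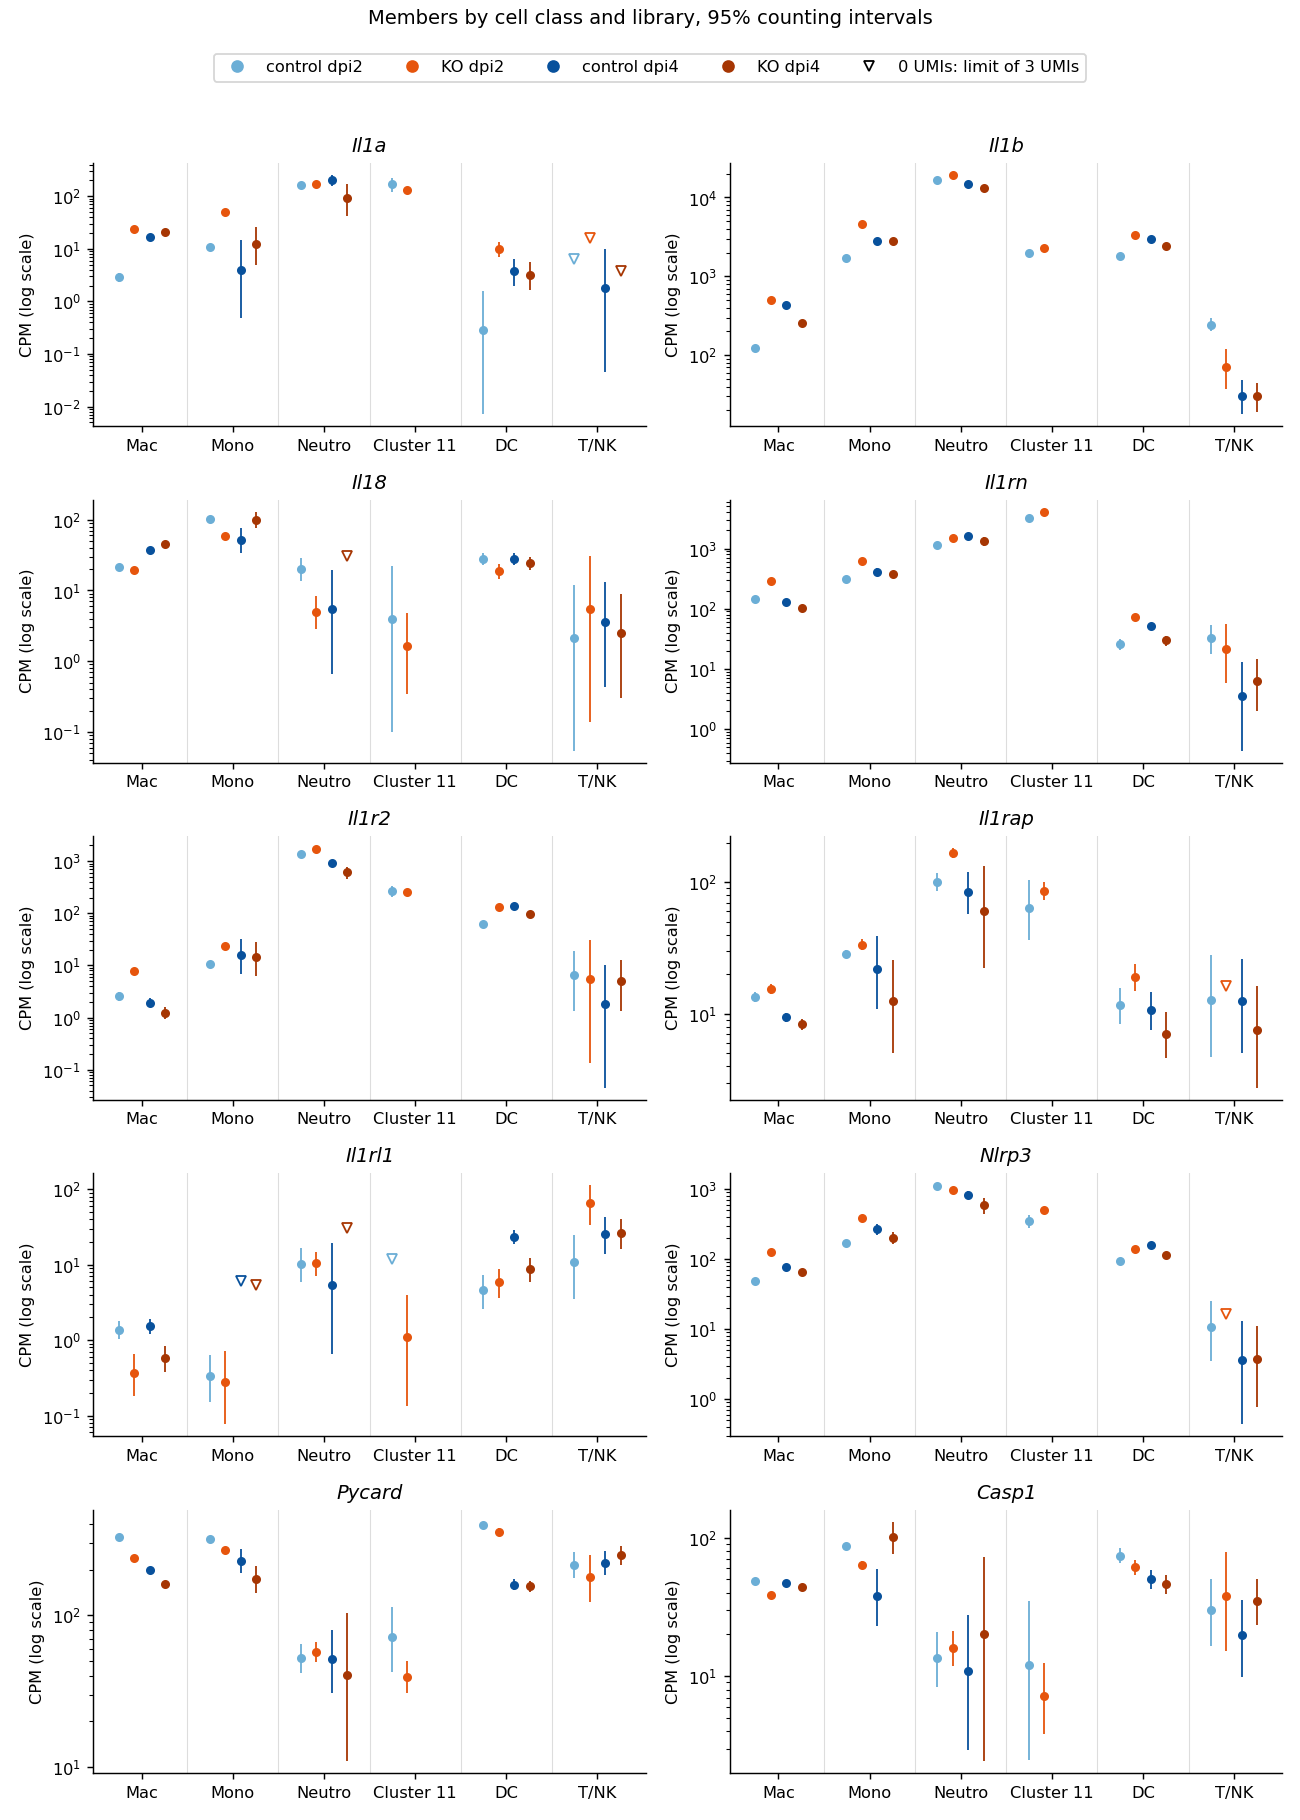
Level of each of the 10 genes (CPM of the class, log axis) by cell class in the 4 libraries, with points for the summed UMIs of a class and bars for 95% Poisson intervals. Open triangles mark 0 UMIs, drawn at the limit of 3 UMIs, and classes of under 20 cells are left out. Il1b reaches 19185 CPM in neutrophils and 122 CPM in control macrophages at dpi2, while Pycard is lowest in neutrophils and cluster 11.

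The classes that carried a member's UMIs changed with time, as did both the number of cells of each class and its level per UMI. At dpi2 monocytes held 54.8% of Il1b UMIs in the control and 42.2% in the KO library, and neutrophils 31.1% and 36.8%. At dpi4 macrophages held 52% and 49.3% and dendritic cells 22.1% and 37%. Macrophages, with a low level per UMI, thus became the largest holder of Il1b transcripts at dpi4, when they were also most of the cells.

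For Il1rn at dpi2, monocytes held 51% of the UMIs in the control and 29.4% in the KO library. Cluster 11 held 4.7% and 24.4%, with 1.5% and 13% of the cells. Il1r2 lay mostly in neutrophils at dpi2 (75.9% and 76.9%) and at dpi4 dendritic cells held the largest share (48.2% and 71.3%), followed by neutrophils (34.3% and 12%). Il18 lay mostly in monocytes at dpi2 (74.4% and 55.5%) and in macrophages at dpi4 (83.6% and 90.9%). For Nlrp3 the largest shares were 52.9% and 39.9% in monocytes at dpi2 and 73% and 81.8% in macrophages at dpi4. Pycard lay mostly in macrophages in all 4 libraries (55.2%, 56.6%, 84% and 86.8%). Clusters led by muscle, endothelial or fibroblast genes, with 511 cells in the control at dpi4 against 143 in the KO library, held 19.1% of the Il1a UMIs in the former, at 22.6 CPM. They also held 466 CPM of Il1b there, and the part of RNA from other cells in these values was not tested.

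**Figure D2:**
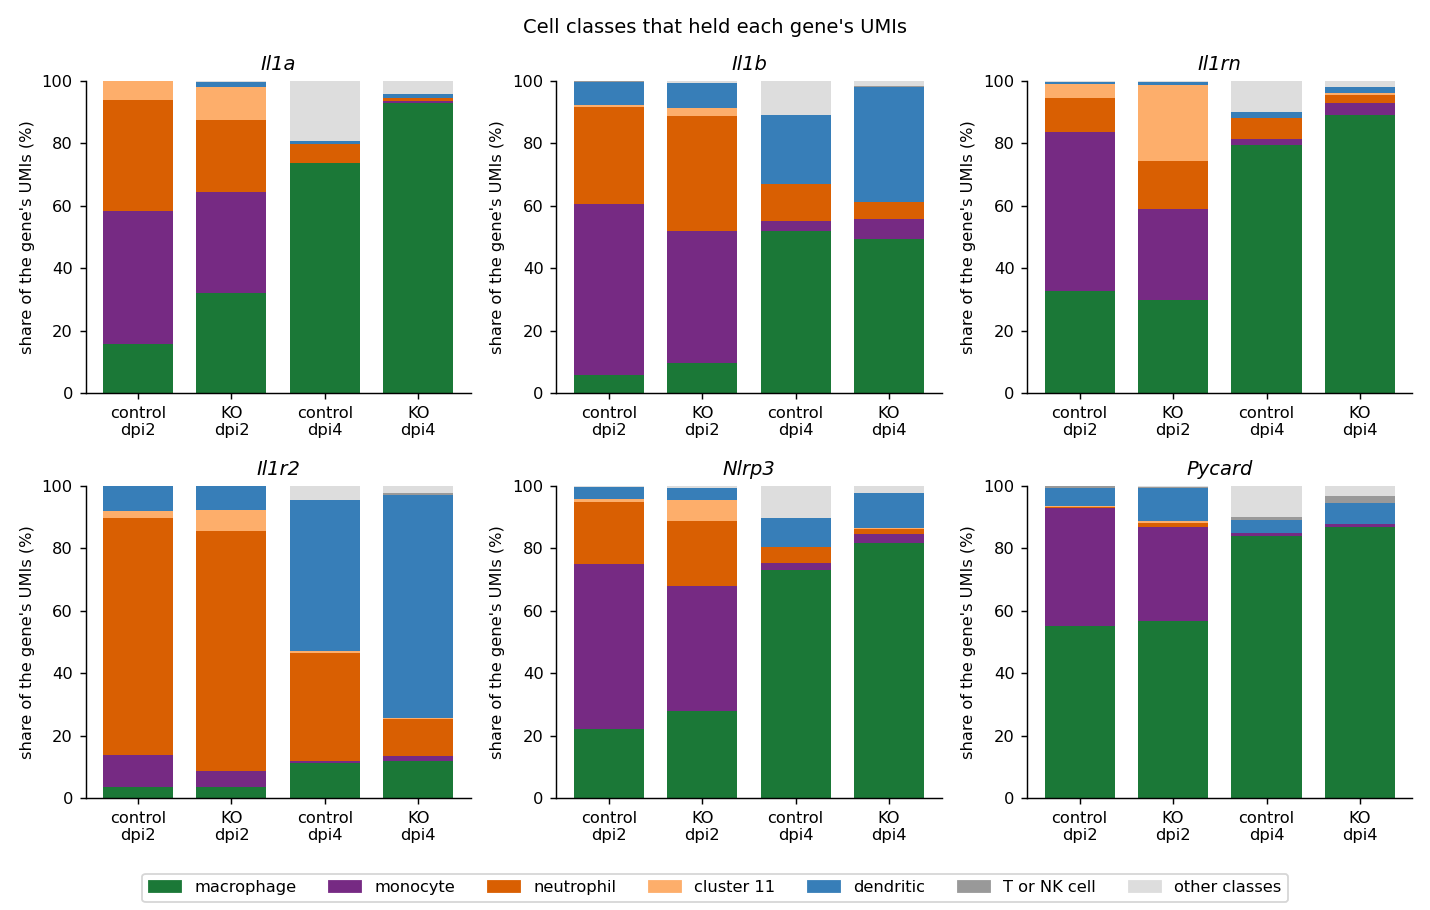
Share of a gene's UMIs (percent, from 0 to 100) that lay in each cell class, as stacked bars for the 4 libraries and 6 of the genes. Macrophages hold 5.7% and 9.7% of Il1b UMIs at dpi2 and 52% and 49.3% at dpi4, and cluster 11 holds 24.4% of Il1rn UMIs in the KO library at dpi2.

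The first comparison asks which members differed between KO and control at dpi2. In macrophages, Il1a, Il1b, Il1r2, Nlrp3 and Il1rn were at least 2-fold higher in the library labelled KO and Il1rl1 was at least 2-fold lower. A size rule stands in for a test: at least 2-fold, with at least 50 UMIs in the pair of libraries. It was passed by 6 of the 10 members, against 4.36% of the 11123 genes with enough UMIs. The median log2 ratio was 0.62 over the members and -0.02 over all genes.

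For the ligands, macrophage Il1a was 2.86 CPM (2.35 to 3.45) in control cells and 23.6 CPM (21.9 to 25.4) in KO cells, a log2 ratio of 3.04 (2.75 to 3.35). Il1b gave a log2 ratio of 2.05 (2.00 to 2.09) and Il18 one of -0.13 (-0.29 to 0.02). The 2 IL-1 ligands were higher and IL-18 was not. Il1rn, at 143 CPM (140 to 147) and 294 CPM (288 to 300), passed the rule narrowly, with a log2 ratio of 1.04 (0.99 to 1.08), and no longer did so, at 0.49, in the cells without S100a8 or S100a9 UMIs described below. Il1r2 had 99 UMIs in the control and 231 in the KO library, a log2 ratio of 1.58 (1.24 to 1.94). The dividing monocytes and macrophages of sub-cluster 12, described below, held 48 and 82 Il1r2 UMIs. Il1rap, the signalling chain, had a log2 ratio of 0.20 (0.02 to 0.39).

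Among the inflammasome genes only the sensor passed the rule in macrophages. Nlrp3 was 49.3 CPM (47.1 to 51.6) in control cells and 128 CPM (124 to 132) in KO cells, a log2 ratio of 1.37 (1.29 to 1.45). Pycard and Casp1 had log2 ratios of -0.46 (-0.51 to -0.42) and -0.35 (-0.46 to -0.24), whose intervals lie below 0 but short of 2-fold. Il1rl1 was lower, at 11 UMIs against 53, a log2 ratio of -1.91 (-2.99 to -0.95). Its ratio was -0.56 in the cells without S100a8 or S100a9 UMIs described below. Sub-cluster 12 held 22 control and 6 KO UMIs of Il1rl1.

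Monocytes at dpi2 gave 4 members past the rule, all higher in the KO library, of 9 with enough UMIs, against 4.54% of all genes. Il1a had a log2 ratio of 2.20 (2.00 to 2.40), Il1b of 1.46 (1.45 to 1.48), Nlrp3 of 1.21 (1.15 to 1.27) and Il1r2, at 10.6 and 24 CPM, of 1.18 (0.95 to 1.41). Il1rn, at 317 CPM (311 to 324) and 616 CPM (603 to 629), lay just under the rule, at 0.96 (0.91 to 0.9996). Il18 went the other way, from 104 to 59.8 CPM, with a log2 ratio of -0.80 (-0.91 to -0.69), and did not pass. The median over these 9 members was 0.96.

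In neutrophils no member passed the rule at dpi2, of 8 with enough UMIs, against 9.44% of 5824 genes. The log2 ratio was 0.20 (0.18 to 0.22) for Il1b, 0.38 (0.31 to 0.46) for Il1rn, 0.32 (0.24 to 0.39) for Il1r2 and -0.17 (-0.26 to -0.08) for Nlrp3. Il1rap came nearest, from 101 to 166 CPM, at 0.71 (0.45 to 0.98). The median log2 ratio of all neutrophil genes was -0.30, and relative to it Il1rap passed the rule. Of the genes past the rule 26.9% were higher in the KO library as counted and 57.4% after centring on that median. The absence of a 2-fold difference in neutrophils, where Il1b and Nlrp3 were highest, was not tested against the differences in macrophages and monocytes.

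Dendritic cells gave 2 of 8 members past the rule at dpi2, against 2.79% of all genes. Il1rn was 25.6 CPM (20.6 to 31.5) in control cells and 72.9 CPM (64.5 to 82) in KO cells, a log2 ratio of 1.51 (1.16 to 1.87). Il1r2 was 62.1 CPM (54.1 to 70.9) and 132 CPM (120 to 144), a log2 ratio of 1.09 (0.85 to 1.32), and 0.80, under the rule, in cells without S100a8 or S100a9 UMIs. Il1b had a ratio of 0.90 (0.86 to 0.94) and Nlrp3 of 0.59 (0.39 to 0.79). When each library was clustered by itself, 7 members passed in this class, but it then held 50 control and 284 KO cells in place of 295 and 224, and the share of all genes past the rule was not computed for that setting.

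**Figure D3:**
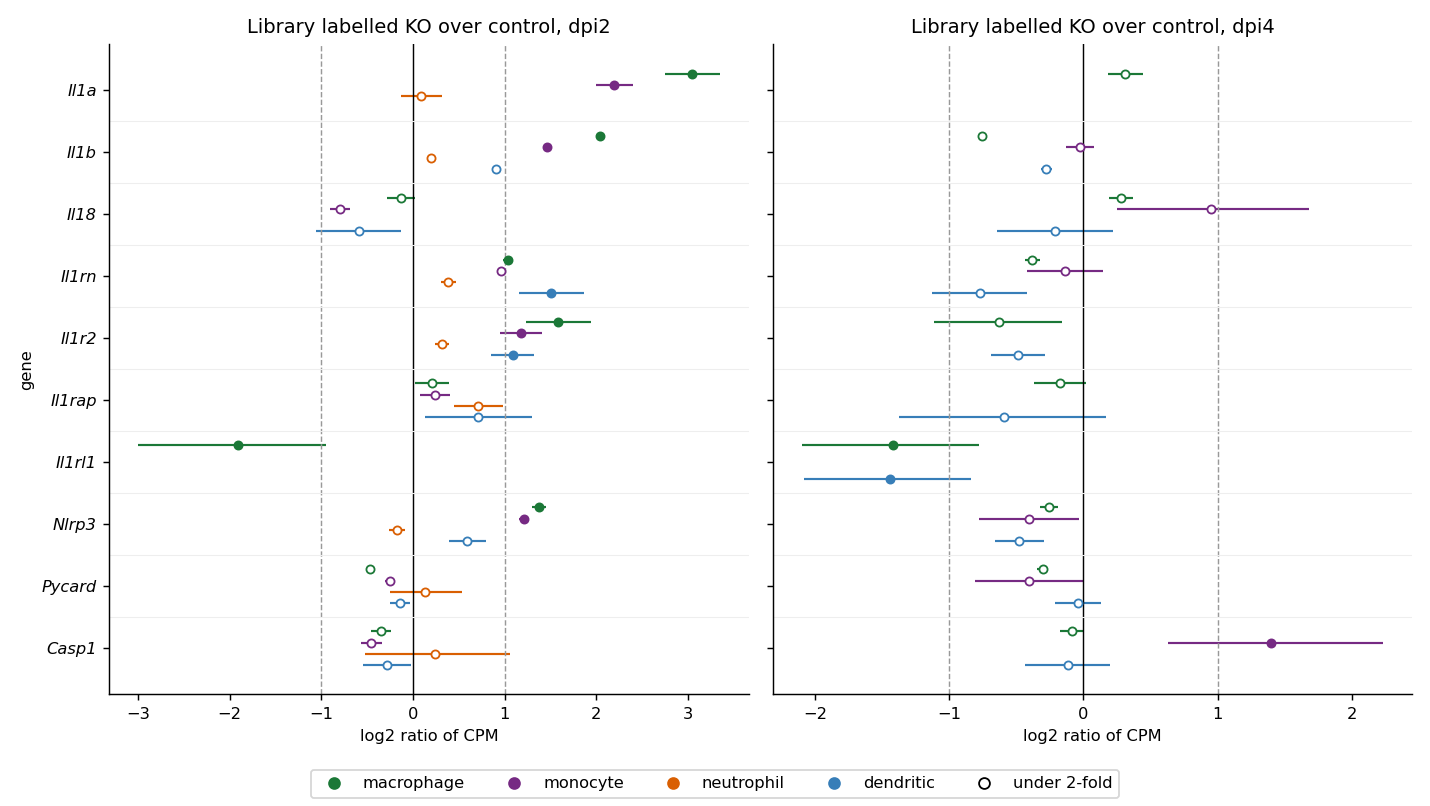
KO over control log2 ratio of each gene in macrophages, monocytes, neutrophils and dendritic cells at dpi2 and dpi4, with 95% intervals for counting error, filled points for ratios past 2-fold with enough UMIs and open points for the rest. Macrophage Il1b is at 2.05 at dpi2 and at -0.75 at dpi4, and no neutrophil member is past 2-fold at dpi2.

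Neutrophil RNA moved with these differences. The share of neutrophils was 11.1% of control and 22.6% of KO cells at dpi2. Cluster 11, which scored highest for neutrophil markers, was a further 1.5% and 13%. The sum of the neutrophil transcripts S100a8 and S100a9 in macrophages was 60 CPM in the control and 201 CPM in the KO library. The same sum was 145 and 347 CPM in monocytes, 117 and 308 CPM in dendritic cells and 32.1 and 201 CPM in T and NK cells. All 8 neutrophil markers were detected in macrophages, monocytes and dendritic cells at dpi2, with summed levels of 102 to 218 CPM in the control and 260 to 433 CPM in the KO library. At dpi4 the marker sums were 93.7 and 74.3 CPM in macrophages.

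The make-up of this RNA can be set beside that of neutrophils. Neutrophils held 0.349 and 0.284 Il1b UMIs per UMI of S100a8 or S100a9 at dpi2. Macrophages held 2.04 and 2.51, and monocytes 11.6 and 13.4, both above neutrophils. T and NK cells held 7.6, 0.351, 4.25 and 12 in the 4 libraries, the second, from 13 Il1b and 37 S100a8 or S100a9 UMIs, being the value nearest to neutrophils. For Il1rn neutrophils held 0.0242 and 0.0224, cluster 11 0.447 and 0.288, and macrophages 2.39 and 1.46. For Il1r2 the values were closer together, at 0.0287 and 0.0254 in neutrophils and 0.0429 and 0.0384 in macrophages. The part of neutrophil RNA in the macrophage ratio of Il1r2 was not tested.

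Macrophages without a single S100a8 or S100a9 UMI numbered 1119 in the control and 130 in the KO library at dpi2, 55.7% and 11.9% of the class. In them Il1a kept a log2 ratio of 3.06, Il1b of 2.55, Il1r2 of 2.20 and Nlrp3 of 1.49, while Il1rn had 0.49, under the rule. In monocytes without these UMIs (1775 and 276 cells) the ratios were 1.71 for Il1a, 1.52 for Il1b, 1.43 for Il1r2, 1.19 for Nlrp3 and 0.86 for Il1rn. In such dendritic cells (215 and 66) Il1rn had 1.32 and Il1r2 0.80, the latter under the rule. This selection was chosen after seeing the data and favours cells with fewer UMIs.

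At dpi4 fewer members passed the rule than at dpi2. In macrophages 1 of 10 members passed the rule, against 2.3% of 11980 genes, and it was again Il1rl1, at 86 UMIs in the control and 27 in the KO library, a log2 ratio of -1.42 (-2.10 to -0.78). Il1b, higher in the KO library at dpi2, was 427 CPM (422 to 433) in control cells and 254 CPM (249 to 258) in KO cells, a log2 ratio of -0.75 (-0.78 to -0.72). Il1r2 had -0.63 (-1.11 to -0.16), Il1rn -0.38 (-0.43 to -0.33) and Nlrp3 -0.25 (-0.32 to -0.19). The 4 members that were highest above control at dpi2 apart from Il1a thus lay below it at dpi4, all short of 2-fold. Il1a and Il18 lay slightly above, at 0.31 (0.18 to 0.45) and 0.28 (0.19 to 0.37).

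Monocytes at dpi4 were few. One of 6 members with enough UMIs passed, against 3.65% of all genes. This was Casp1, with 19 UMIs in the control and 56 in the KO library, a log2 ratio of 1.40 (0.63 to 2.24). With monocytes and macrophages pooled its ratio was -0.06. Monocyte Il1b was 2816 and 2770 CPM, a log2 ratio of -0.02 (-0.13 to 0.08).

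In dendritic cells at dpi4, 1 of 9 members passed, against 1.51% of all genes. Il1rl1 was 23.6 CPM (18.7 to 29.2) in control cells and 8.67 CPM (5.93 to 12.2) in KO cells, a log2 ratio of -1.44 (-2.08 to -0.84). Nearly all of it lay in cDC2, which held 34.4 and 13.7 CPM. Il1rn had a ratio of -0.77 (-1.13 to -0.42). Neutrophils at dpi4 numbered 35 in the KO library, and no ratio is given for them.

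The second comparison, between times, ran differently in the 2 genotypes. In control macrophages 2 of 10 members passed the rule from dpi2 to dpi4, both higher, against 15.8% of all genes. They were Il1a, with a log2 ratio of 2.53 (2.24 to 2.82), and Il1b, with 1.81 (1.76 to 1.85). Il18 had 0.78 (0.66 to 0.90), Nlrp3 0.66 (0.59 to 0.74) and Pycard -0.72 (-0.76 to -0.68). With monocytes and macrophages pooled, the ratio of Il1b was -0.78, since monocytes, with more Il1b, were 2550 cells at dpi2 and 51 at dpi4.

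In KO macrophages 3 of 9 members passed between the same times, against 13.6% of all genes. Il1r2 and Il1rn were lower at dpi4, at -2.62 (-3.06 to -2.21) and -1.54 (-1.59 to -1.49), and Il18 was higher, at 1.19 (1.06 to 1.33). Il1b and Nlrp3 lay just under the rule, at -0.99 (-1.03 to -0.96) and -0.96 (-1.03 to -0.89), and in 7 of the alternative settings 5 members passed. These comparisons share their libraries with those between genotypes and are not independent of them.

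The differences at dpi2 were also read inside single clusters, where they varied. The genes described here were left out of the choice of variable genes, so that they did not shape the clusters directly. In macrophage cluster 6, led by Cd163, Lyve1 and Gja1, with 27.4% of control and 30% of KO macrophages at dpi2, Il1b was 145 and 436 CPM, Il1rn 166 and 256 CPM, Nlrp3 74.4 and 144 CPM and Il1a 1.28 and 10.8 CPM. Another cluster, whose values are not shown, held 58.8% and 56.4% of these macrophages.

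Monocytes were split more unevenly. Cluster 10, led by Vcan, Dmkn and Il6, held 3.1% of control and 56.9% of KO monocytes at dpi2, and cluster 3, led by Cxcl10, Ly6c2 and Plac8, held 53.4% and 15.7%. Il1b was higher in the KO library in each of the 4 monocyte clusters: 1819 and 3223 CPM in cluster 3, 669 and 1779 CPM in cluster 8, 2472 and 4074 CPM in cluster 9 and 3926 and 5718 CPM in cluster 10. Il1a in cluster 10 was 64.3 and 60.4 CPM, and Nlrp3 in cluster 9 was 151 and 156 CPM. The class ratio therefore joins a different mixture of clusters with differences inside them.

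When monocytes and macrophages were clustered on their own, the highest Il1b was in sub-cluster 9, led by Il1b itself, Vcan and Cxcl3. It was 5530 CPM in 57 control cells and 5635 CPM in 594 KO cells. In these cells Nlrp3 was 302 CPM (258 to 351) in control cells and 453 CPM (439 to 468) in KO cells, and Il18 81.8 CPM (59.7 to 109) and 49.8 CPM (45.2 to 54.7). Other sub-clusters differed more in Il1b at dpi2. It was 164 and 499 CPM in sub-cluster 6 (Cd163, Lyve1, Gja1), 839 and 1457 CPM in sub-cluster 5 (F10, Slpi, Ly6c2) and 199 and 1031 CPM in the dividing cells of sub-cluster 12 (Top2a). Il1r2 at dpi2 was 9.61 and 38.1 CPM in sub-cluster 12, 2.01 and 6.54 CPM in sub-cluster 6 and 1.22 and 2.43 CPM in sub-cluster 2. Il1rl1 in sub-cluster 12 was 4.40 and 2.79 CPM. Sub-cluster 2, led by Hmga2, Fabp4 and Htr2b, held 1201 control and 141 KO cells, with 69 and 99.1 CPM of Il1b and 37.9 and 52.9 CPM of Nlrp3, both short of 2-fold. Its Il1rn was 139 and 119 CPM, lower in the KO library. The macrophages and monocytes of the 2 genotypes were thus spread differently over the sub-clusters at dpi2, and a class ratio compares these mixtures. Il1rn at dpi2 was highest in sub-cluster 9 in the control (587 CPM) and in sub-cluster 5 in the KO library (915 CPM).

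At dpi4 Il1b in macrophages was high in cluster 2, led by Tmem176b, Hpgd and H2-Aa, at 982 CPM in the control and 984 CPM in the KO library. This cluster was 35.5% of control and 15.3% of KO macrophages. Cluster 5, led by Slc40a1, Il18bp and Gdf15, was 10.3% and 34.4% of them and held 169 and 220 CPM of Il1b. Il1rn in these clusters was 206 and 136 CPM in cluster 2 and 90.9 and 86.4 CPM in cluster 5. Cluster 12, led by Iigp1, Ifit2 and Ifit3, held 439 and 201 CPM of Il1b, with 10.9% and 7.58% of the cells. Both the shares of the clusters and the levels inside some of them thus differed between the libraries, and their parts in the class ratio of Il1b were not tested. In cluster 16, led by Mmp12, Mt3 and Ctsk, the order of the 2 genes was turned round, with 89.7 and 78 CPM of Il1b and 227 and 244 CPM of Il1rn. Sub-cluster 4, led by Txnip, Pltp and Apoe, was lowest for both genes, with 42.2 and 18.2 CPM of Il1b and 21.6 and 20.6 CPM of Il1rn.

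**Figure D4:**
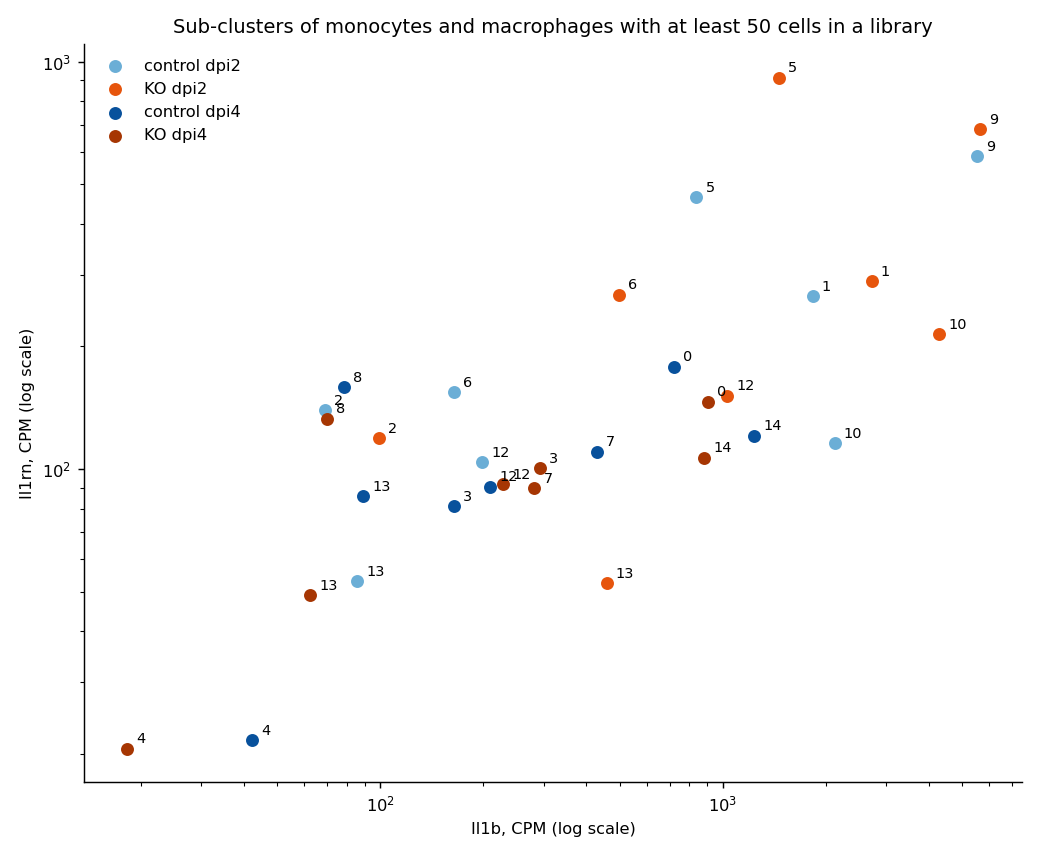
Il1b level (x axis) against Il1rn level (y axis), both in CPM on log axes, with 1 point per sub-cluster of monocytes and macrophages and library with at least 50 cells, coloured by library and labelled with the sub-cluster's number. Sub-cluster 11 is not shown and no error bars are drawn. Sub-cluster 9 lies at 5530 and 5635 CPM of Il1b at dpi2, and sub-cluster 4 at 42.2 and 18.2 CPM at dpi4.

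Counted per cell, the share of cells with at least 1 Il1b UMI was compared after thinning every cell to 2000 UMIs. In macrophages it was 13.4%, 30.8%, 28.3% and 19.6%, and without thinning 40.8%, 77.1%, 58.5% and 38.3%. In monocytes it was 56.4%, 82.1%, 66.7% and 72.7%, and in neutrophils 99.1%, 99.4%, 100% and 96.9%. The background in T and NK cells was 8% (3.52 to 15.2), 11.1% (3.11 to 26.1), 8.11% (3.03 to 16.8) and 1.56% (0.19 to 5.53). Control macrophages at dpi2, at 13.4% (11.9 to 15), overlapped this background. Thinning left out 30 to 82 macrophages, 167 control and 55 KO neutrophils at dpi2 and at most 5 T and NK cells per library. Median depths before thinning were 15201 to 26246 UMIs in macrophages, 2308 to 3420 in neutrophils and 3951 to 4962 in T and NK cells.

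For the antagonist, thinned macrophages with an Il1rn UMI were 19.5%, 30%, 15.4% and 11.7%, against 0% to 5.56% of T and NK cells. In cluster 11 it was 91.7% and 92.7% at dpi2. Nlrp3 was found in 9.78%, 20.6%, 12.8% and 11.8% of macrophages and Il1r2 in under 1% of them in every library, against 0% to 1.56% of T and NK cells. Pycard was found in 45.7%, 34.6%, 31.5% and 26.4% of macrophages and in 29.7% to 50% of T and NK cells.

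Thinned macrophages with Il1b held Nlrp3 more often than those without, at 18.5% against 8.44%, 31.2% against 15.9%, 23.3% against 8.72% and 22.9% against 9.04%. For Pycard the shares were 44.6% against 45.8%, 32.7% against 35.4%, 29.7% against 32.3% and 26.9% against 26.3%. The share with the sensor was thus higher among macrophages with Il1b in all 4 libraries, and the share with the adaptor in 1 of 4.

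The balance of agonist and antagonist was taken as Il1b UMIs per Il1rn UMI, a ratio of captured 3′ ends that needs no correction for transcript length. In macrophages it was 0.853 (0.820 to 0.887), 1.72 (1.67 to 1.76), 3.25 (3.17 to 3.34) and 2.51 (2.43 to 2.60). In monocytes it was 5.31, 7.54, 6.91 and 7.47, and in neutrophils 14.4, 12.7 and 9.14 in the first 3 libraries. Dendritic cells had the highest values, at 70.2, 46.1, 57.8 and 81.4, and cluster 11 the lowest at dpi2, at 0.62 and 0.57. Among these 4 classes, control macrophages at dpi2 were the only ones with more Il1rn than Il1b UMIs. The ratio of Il1a to Il1rn UMIs in macrophages was 0.02, 0.0804, 0.126 and 0.203, lowest in the same library. Over all kept cells the ratio of Il1b to Il1rn UMIs was 4.94, 5.26, 4.96 and 4.53, a narrower range than in macrophages alone.

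The other genes of the pathway were taken from 3 fixed lists. Of 12 further ligands, receptors and binding proteins, 5 had enough UMIs in macrophages at dpi2, and 2 were higher and 0 lower in the KO library, against 4.36% of all genes past the rule in either direction. None of 8 receptor signalling genes and none of 16 further inflammasome genes passed the rule there, nor in macrophages at dpi4 or monocytes at dpi2. In monocytes at dpi2, 3 of the ligands, receptors and binding proteins had enough UMIs, and 1 was higher and 1 lower, against 4.54% of all genes. In neutrophils at dpi2, 1 of 2 such genes was higher and 1 of the 10 inflammasome genes with enough UMIs was lower, against 9.44% of all genes. The sensor Nlrp3 was thus the only inflammasome gene among these and the members that passed the rule between genotypes in macrophages.

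The signalling receptor gene Il1r1, chosen after its values were seen, had 11, 7, 26 and 14 UMIs in macrophages and 69, 67.3, 15.4 and 38.8 CPM in the muscle, endothelial and fibroblast clusters. In these libraries the receptor chain that pairs with Il1rap was thus nearly uncounted in macrophages.

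By name, Il1f9, which encodes the IL-1 family cytokine IL-36γ, had 2 UMIs in control macrophages at dpi2 and 57 in those labelled KO, a log2 ratio of 5.19 (3.27 to 8.27). Monocytes at dpi2 had 6 and 108 Il1f9 UMIs. Il1f9 is also a leading gene of cluster 11, which held 232 and 851 CPM. Il18rap, a chain of the IL-18 receptor, was 0.911 CPM in control and 2.41 CPM in KO macrophages at dpi2, a ratio of 1.40 (0.80 to 2.03), and neutrophils held 173 and 205 CPM of it. Il18bp, which encodes a soluble protein that binds IL-18, was 64.1 CPM in control and 190 CPM in KO macrophages at dpi4, a log2 ratio of 1.57 (1.51 to 1.62). Il18bp is also a leading gene of cluster 5, which was 10.3% of control and 34.4% of KO macrophages. The gene counted above as lower in KO monocytes at dpi2 was Il18bp or Il18rap. At least 1 of these genes thus ran the other way in that class. Casp8, a protease of cell death pathways, was 58.2 CPM in control and 27.4 CPM in KO neutrophils at dpi2, giving a log2 ratio of -1.09 (-1.54 to -0.64), and -0.78 relative to the median gene.

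Over the 22 sums of a class in a library with at least 50 cells, the genes most like each of 4 members were found among 11968 genes by Pearson's r of log2(CPM + 1). For Il1b they were Csrnp1 (r = 0.937), Ifitm5 (0.933) and Spag9 (0.931). For Il1rn they were Tnf (0.962), Msrb1 (0.956) and Tlr6 (0.951). Il1r2 was nearest to Ifitm1 (0.924), Med13l (0.922) and Nfkbid (0.903), and the sparse Il1rl1 to Trp53i13 (0.792), Tm4sf1 (0.787) and BC021614 (0.754). The points share 4 libraries and a few classes, and the values describe likeness only.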

How the data were processed

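Raw UMI counts of 27998 genes were used as the authors deposited them, 1 matrix per library, made per the labels with Cell Ranger 6.1.2 on mm10 and without normalization. The deposited tables held barcodes with at least 500 UMIs, and total counts were 57010520 to 80228489 UMIs per library. The labels and the study's methods name different versions of the 3′ kit, so the chemistry is not stated here. The study's own filters and cell names (miQC, scDblFinder, Harmony, SingleR) were replaced.

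Barcodes with at least 500 genes and a mitochondrial share under 10% were kept. At dpi4, 15.4% and 19.9% of barcodes exceeded that share, and at dpi2 8.10% and 6.61%. The highest Scrublet scores were removed as doublets, at 0.8% per 1000 cells. After log-transformation of counts per 10000, 2000 variable genes, without the 46 genes of the members and pathway lists, gave 30 principal components, 15 neighbours and Leiden clusters at resolution 1 (python 3.11.15, scanpy 1.11.5, leidenalg 0.10.2, scipy 1.17.1). The 26 clusters were named from 119 fixed markers, of which 116 were in the files.

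UMIs were summed per class and library and given as CPM with exact Poisson intervals, ratios with exact conditional binomial intervals and shares of cells with exact (Clopper-Pearson) intervals, all at 95% and for counting error only. The limit for 0 counts was taken as 3 counts. The size rule was at least 2-fold and at least 50 UMIs in the pair, for classes of at least 50 cells in both libraries. Named pathway genes were those past the rule with the largest ratios between genotypes in macrophages, monocytes or neutrophils (up to 6, of which 4 qualified), and the 3 genes most like 4 of the members. The members, lists and markers were chosen with earlier results of these data known. Alternatives changed the filters, doublets, resolution, clustering, pooling, centring, weighting, fold, UMI minimum and thinning. Promoters came from RefSeq on GRCm38.p6 and gene positions from GENCODE on GRCm38, by gene ID. For 1 cluster and 1 sub-cluster the values are not reported here.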

Additional observations from a re-analysis of the deposited data

Results flagged for a closer look

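For 8 pairs of a gene and a class, the KO over control log2 ratio lay on opposite sides of 0 at dpi2 and dpi4, with intervals for counting error that left out 0 at both times and a ratio past 2-fold at 1 of them or more. With 1 library per group these differences between times were not tested, and the libraries differ in cell make-up. In macrophages the ratio at dpi4 minus that at dpi2 was -2.80 for Il1b, -1.42 for Il1rn, -2.21 for Il1r2 and -1.63 for Nlrp3. In monocytes it was -1.61 for Nlrp3 and 1.85 for Casp1, the latter on 19 and 56 UMIs at dpi4. In dendritic cells it was -2.28 for Il1rn and -1.57 for Il1r2.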

How the results depend on the processing

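No paired analysis was possible because each group is 1 library and the groups share fewer than 2 replicate numbers. Of 715 values of 79 log2 ratios under the alternatives, 674 kept the sign of the main value, and of 188 values of the 20 ratios past the size rule 186 did. Fewer, 526 of the 715 and 130 of the 188, lay within the counting interval of the main value. With monocytes and macrophages pooled, 2 ratios reversed: Casp1 in monocytes at dpi4 to -0.063 and Il1b in control macrophages over time to -0.78. The 6 members past the rule in macrophages at dpi2 were 4 to 6 and the 4 in monocytes 3 to 6.

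The Il1b ratio at dpi2, 2.05 in macrophages, was 1.96 with at least 200 genes per barcode, 1.99 with a mitochondrial limit of 15%, 1.98 with doublets kept, 2.15 with each library clustered by itself, 2.00 with members among the variable genes, 1.80 with cells weighing the same and 2.55 in cells without S100a8 or S100a9 UMIs, a choice made after seeing the data. In monocytes, 1.46 became 1.58 with doublets kept, 1.49 at resolution 0.5, 1.44 per library, 1.42 with cells weighing the same and 1.52 without S100a8 or S100a9 UMIs. Pooling both classes gave 1.26.

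Counts of members past the rule between genotypes also moved. The share of all genes past the rule was computed under the main settings only, so these counts have no background of their own. The 1 in macrophages at dpi4 became 2 with doublets kept or per library, 0 with cells weighing the same or at least 200 UMIs and 3 at 1.5-fold. The 1 in monocytes at dpi4 became 0 at 200 UMIs and 2 with 200 genes, a limit of 15%, members among the variable genes, 1.5-fold or no UMI minimum. The 0 in neutrophils became 1 with doublets kept, centring, 1.5-fold, no UMI minimum or cluster 11 pooled in, the last chosen after seeing the data. Dendritic counts of 2 at dpi2 and 1 at dpi4 became 7 per library or 6 at 1.5-fold, and 3 at 1.5-fold or 0 at 200 UMIs. Over time, 2 in control macrophages became 5 at 1.5-fold. The 3 in KO macrophages became 6 at 1.5-fold and 5 with 200 genes, a limit of 15%, doublets kept, resolution 0.5, per library, members among the variable genes or pooling.

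Depth limits Il1rl1, with 82 to 190 UMIs per library, Il1r2 in macrophages and every monocyte and neutrophil value at dpi4. The spread between animals was not measured. The causes of these shifts were not tested.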
